A study of Mus musculus with 6 samples.

Results

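The genes described here encode the protein import machinery of mitochondria, the TOM complex of the outer membrane and the TIM complexes of the inner membrane. They were taken by name, as all genes whose symbol begins with Tomm or Timm, and 27 of the 29431 genes in the deposited table met that rule. The libraries came from mouse embryos with 4 cells, all wild type. There were 3 libraries of embryos treated with an inhibitor of lactate dehydrogenase B, given as AXKO-0046 in the labels, and 3 of untreated control embryos. The labels give neither a dose, a strain nor a time of exposure. The series text mentions 6 embryos, and does not make clear whether they are counted per group or per library. No label places the replicates in separate litters or cultures, so each p-value measures how far these particular libraries scatter, and that scatter may be technical.

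Nearly all mitochondrial proteins are encoded in the nucleus, made in the cytosol and carried into the organelle. The TOM complex is the common entry gate: the receptors TOM20, TOM22 and TOM70 bind precursors and TOM40 forms the channel. Behind it the TIM23 complex passes precursors with a cleavable presequence into the matrix, the TIM22 complex inserts metabolite carriers into the inner membrane, and the small TIM chaperones escort hydrophobic proteins through the intermembrane space. The early mouse embryo inherits its mitochondria from the oocyte, and the carriers of the malate-aspartate shuttle named in the series title are themselves cargo of this machinery.

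The identity of the embryos was checked first. Of 13 markers of oocytes and early embryos all were in the table and 10 averaged at least 1 FPKM. The list summed to 11578 to 19735 FPKM in inhibitor libraries and 14422 to 16233 FPKM in controls. Most of this was Dppa3, at 10513.8 to 18143.9 FPKM in inhibitor libraries and 13053.5 to 14495.5 FPKM in controls. Pou5f1, Gdf9 and Tle6 averaged 4.92, 1.93 and 1.08 FPKM, and Ooep and Nlrp5 0.83 FPKM each. Carm1 stayed under 1 FPKM in each library. Of 14 cumulus cell markers 8 were in the table and 6 of these stayed under 1 FPKM in each library, while the other two were Amhr2 and Nr5a2, of which Nr5a2 is also known from early embryos. The summed cumulus list was at 22.2 to 33.3 FPKM in inhibitor libraries and 20.2 to 35.6 FPKM in controls. Inhibitor replicate 2 stood apart. Its genes of the 2-cell stage summed to 1858 FPKM, against 49.9 and 39.8 FPKM in inhibitor replicates 1 and 3 and 23.8 to 63.7 FPKM in controls, and its median correlation with the other libraries over the tested genes, which are not independent, was 0.888, where the rest lay between 0.946 and 0.965. The share of FPKM from genes of mitochondrial DNA was 10.6% to 11.98% in inhibitor libraries and 15.1% to 18.9% in controls. The part of these differences in the import results was not tested beyond leaving out each library. That check cannot address the share of mitochondrial DNA, in which the groups did not overlap. In whole embryos, less RNA per cell and fewer cells cannot be told apart.

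No gene of the import machinery passed the test, and the fold changes of its genes lay on both sides of 0. Of the 27 genes 25 averaged at least 1 FPKM over the 6 libraries and entered the limma fit of 9691 genes on log2(FPKM + 1). Their fold changes were above 0 in 14 genes and below 0 in 11, so 56.0% lay above 0, where 57.1% of all tested genes lay above and 42.9% below. The median over the 25 genes was 0.090 on the log2 scale, beside 0.062 over all genes tested. None of the 25 passed limma at an adjusted p of 0.05. Nor did any other gene (0% higher and 0% lower), with 457 higher and 368 lower genes at an unadjusted p under 0.05. Among the import genes 1 was higher and 0 lower at that level, where the shares over all genes were 4.72% and 3.8%. Taken over both directions, that count was 0 under both scalings tried, the replicate block and the filter at 5 FPKM. With single libraries left out it was 4 without inhibitor replicate 3 (Tomm40, Timm50 and Tomm70a higher, Tomm5 lower). It was 2 without inhibitor replicate 1 (Tomm6 higher, Timm23 lower) and otherwise 0. Of all 9691 tested genes, 748 were higher and 431 lower without inhibitor replicate 3, and 471 and 396 without inhibitor replicate 1. In 3 import genes (Tomm70a, Timm10 and Timm10b) the inhibitor libraries stood wholly above the controls, and in 0 wholly below, beside 9.13% and 6.26% of all tested genes. Under either median-ratio scaling or quantile normalization 1 import gene, Tomm70a, stood wholly above, beside 6.41% and 5.9% of all tested genes. Leaving out inhibitor replicate 1 gave 5 wholly above and 2 wholly below, and leaving out inhibitor replicate 3 gave 6 and 2. Smaller groups separate more readily, and the share over all tested genes was not computed for either of these settings. Without inhibitor replicate 2 the 25 genes split into 16 above and 9 below 0, with a median of 0.047, beside a median of 0.032 and 53.9% above 0 over all tested genes. In that setting 3 import genes (12.0%) lay wholly above the controls, beside 14.8% of all tested genes. The median of the import genes was 0.010 with 13 genes above 0 under median-ratio scaling, where that of all tested genes was -0.0032 with 49.7% above 0. Under quantile normalization it was -0.019 with 12 genes above 0, where that of all tested genes was -0.026 with 47.0% above 0.

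The import genes covered a wide range of levels. Summed over all 27, they held 4252, 4039 and 4589 FPKM in the inhibitor libraries and 4781, 4400 and 4569.7 FPKM in control libraries, which was 0.867%, 0.811% and 1.004% of all FPKM under the inhibitor and 0.921%, 0.860% and 0.871% in controls. The groups overlapped in both measures. The 5 most abundant genes, Timm23, Tomm5, Tomm22, Tomm20 and Timm10, made up 64.2% to 72.3% of the sum in inhibitor libraries and 70.6% to 72.2% in controls. Averaged over the 6 libraries, Timm23 stood at 1032 FPKM and ranked 63rd of all genes listed, and Tomm5 stood at 999.8 FPKM at rank 67. At the other end of the tested range were Timm10b at 1.94 FPKM and Timm21 at 2.06 FPKM. Tomm40l, a paralog of the channel gene, was listed at 0 in each inhibitor library and reached 0.126 FPKM among controls, and the antisense RNA Tomm6os stayed at or below 0.177 FPKM. These last 2 genes did not enter the test. Of the 11 tested genes averaging 100 FPKM or more 4 had fold changes above 0, and of the 14 below that level 10 did, where 47.7% and 57.8% of all genes in these ranges did; without inhibitor replicate 2 the counts were 6 and 10, beside 54.5% and 53.8%. This split was chosen after the values were seen.

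**Figure D1:**
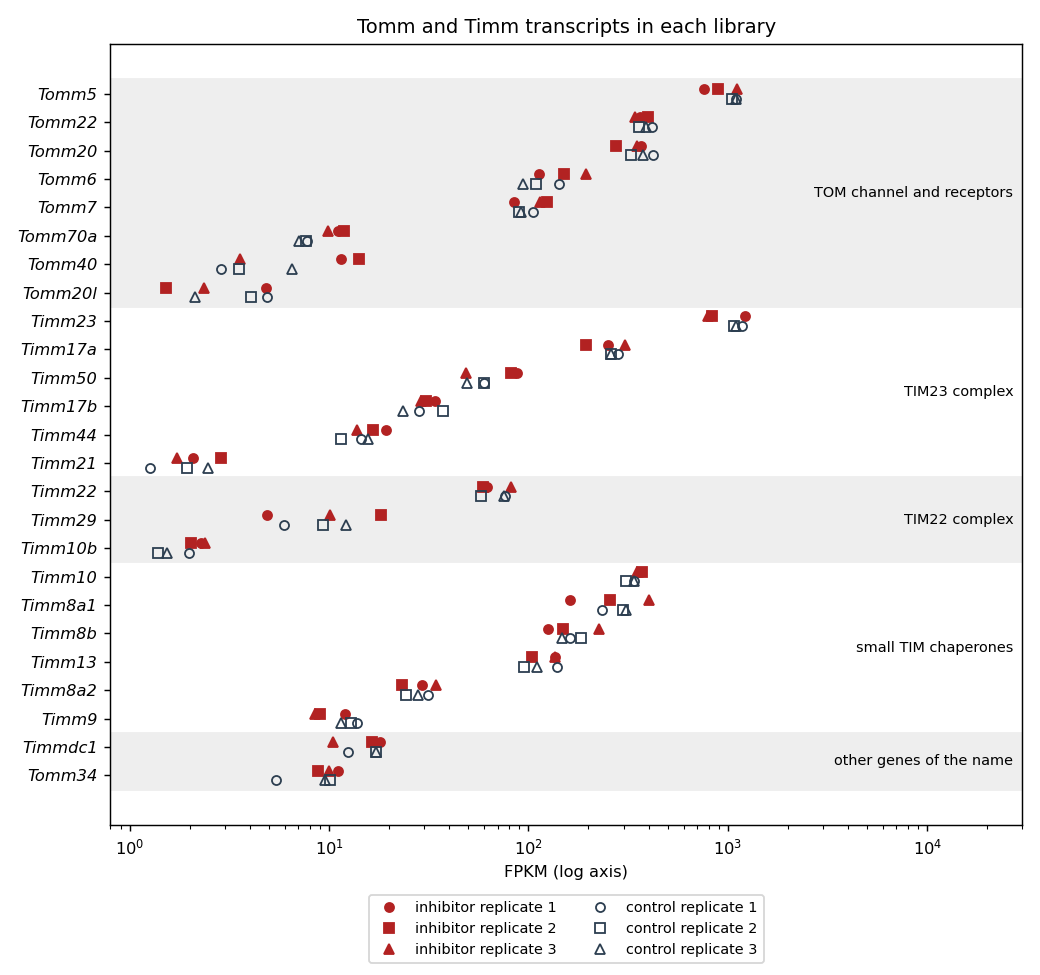
Levels of the 25 tested import genes in FPKM on a log axis, filled symbols for the 3 inhibitor libraries and open symbols for the 3 controls, with genes ordered by mean level within each complex. Timm23 and Tomm5 lie near 1000 FPKM, Tomm70a averages 9.23 FPKM and Tomm40 7.003 FPKM, and the groups overlap in all genes but Tomm70a, Timm10 and Timm10b.

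Among the subunits of the TOM complex the levels were far from even, and of the 8 tested genes 4 had fold changes above 0 and 4 below (median 0.038, against -0.044 under median-ratio scaling and -0.021 under quantile normalization). Tomm40, which encodes the channel itself (ENSMUSG00000002984, chromosome 7, 19701313 to 19715438, minus strand, GRCm38), averaged 7.003 FPKM over the 6 libraries, while the central receptor Tomm22 averaged 377 FPKM and the small subunit Tomm5 999.8 FPKM, all per length of transcript. Tomm40 was measured at 11.5, 14.1 and 3.56 FPKM in the inhibitor libraries, against 2.88, 3.54 and 6.502 FPKM in control libraries. Inhibitor replicates 1 and 2 were the highest of the 6 libraries and inhibitor replicate 3 lay within the controls. The fold change was the largest of the import genes by point estimate, at 0.90 (95% interval -0.18 to 1.98, limma adjusted p = 0.629), and its interval included 0. It was 1.43 without inhibitor replicate 3 (limma adjusted p = 0.280) and 0.57 without inhibitor replicate 2 (limma adjusted p = 0.772), and 0.280 to 0.902 was the range of its adjusted p over all alternatives.

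Tomm70a encodes the receptor that takes up carrier precursors handed over by cytosolic chaperones (ENSMUSG00000022752, chromosome 16, 57121703 to 57156705, plus strand). It was at 11.1, 11.9 and 9.87 FPKM in the inhibitor libraries, against 7.76, 7.71 and 7.03 FPKM in control libraries. Each inhibitor library lay above each control. The fold change was 0.49 (95% interval 0.021 to 0.96, limma adjusted p = 0.579), so that this gene had the smallest unadjusted p of the machinery (0.0423) and did not pass over all genes. Leaving out any 1 library kept the fold change between 0.43 and 0.56. The interval included 0 under median-ratio scaling (-0.056 to 0.89), quantile normalization (-0.10 to 0.86), the replicate block (-0.022 to 1.004), the filter at 5 FPKM (-0.0021 to 0.98) and when any library but inhibitor replicate 3 was left out. The authors' deposited table gives Tomm70a a p-value of 0.00938 and a q-value of 0.2895, and Tomm40 a p-value of 0.0352 and a q-value of 0.5704. In the authors' deposited table these 2 were the import genes with a p under 0.05, in a table where 7.52% of all genes listed and 13.3% of those with a mean of at least 1 FPKM had one, and 0 import genes are among the 233 genes the authors marked (0.792% of those listed). Nit2 lies on the opposite strand and shares 41 exonic bases with Tomm70a, 0.419% of its exons.

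The other receptors and small subunits did not separate the groups. Tomm20, the presequence receptor, averaged 331 ± 50.01 FPKM in inhibitor libraries and 374 ± 46.4 FPKM in controls (SD, n = 3 each), and Tomm22 averaged 367 ± 28.4 FPKM in inhibitor libraries and 387 ± 29.2 FPKM in controls. Their fold changes were -0.18 (SE 0.18, limma adjusted p = 0.777) and -0.077 (SE 0.15, limma adjusted p = 0.897). Tomm5 was at 758, 889.6 and 1107 FPKM in the inhibitor libraries, against 1104, 1045 and 1096 FPKM in control libraries. The control libraries lay close together, and inhibitor replicates 1 and 2 lay below all of them, with inhibitor replicate 3 above. Its fold change was -0.25 (SE 0.17, limma adjusted p = 0.697). Tomm6, another small subunit that stabilises the complex, was at 112, 151 and 194 FPKM in the inhibitor libraries, against 142, 109 and 93.6 FPKM in control libraries. Here the inhibitor libraries reached higher, yet the lowest of them lay within the controls, and the fold change was 0.39 (SE 0.24, limma adjusted p = 0.675). Tomm7 averaged 107 ± 20.7 FPKM in inhibitor libraries and 95.5 ± 8.52 FPKM in controls, and the Tomm20 paralog Tomm20l 2.89 ± 1.72 FPKM in inhibitor libraries and 3.69 ± 1.41 FPKM in controls, with fold changes of 0.15 and -0.31. Tomm6 and Tomm6os share 219 exonic bases on opposite strands, 19.4% and 7.44% of their exons. The labels mention no strand, so reads from these bases cannot be told apart. On the same strand Gm21981, averaging 0.038 FPKM, shares 859 exonic bases with Tomm6, 76.0% of the Tomm6 exons.

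**Figure D2:**
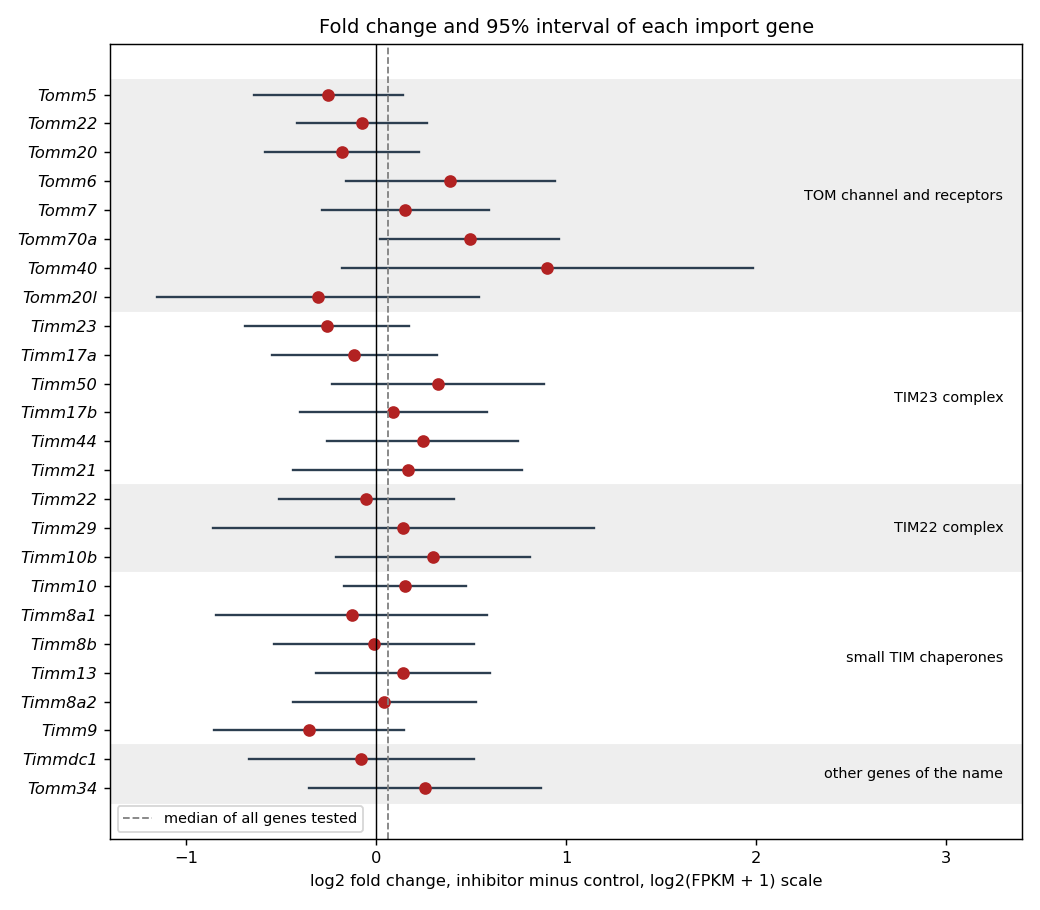
Log2 fold change of each tested import gene, inhibitor minus control, on the log2(FPKM + 1) scale, with points for the estimates and bars for 95% intervals from limma. The dashed line marks the median of all genes tested at 0.062, and the bar of Tomm70a (0.021 to 0.96) is the one that does not reach 0, although it does under other settings, such as median-ratio scaling (-0.056 to 0.89).

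In the TIM23 complex 4 of 6 fold changes lay above 0 and 2 below (median 0.13), with none past the test. Timm50, which receives precursors from TOM in the intermembrane space, was at 87.8, 81.97 and 48.8 FPKM in the inhibitor libraries, against 60.1, 59.9 and 49.1 FPKM in control libraries. Inhibitor replicates 1 and 2 were above all controls and replicate 3 below them, with a fold change of 0.33 (SE 0.24, limma adjusted p = 0.718). Timm44, which tethers the matrix import motor to the channel, averaged 16.5 ± 2.75 FPKM in inhibitor libraries and 13.8 ± 2.14 FPKM in controls (SD, n = 3 each), with 0.24 (SE 0.22, limma adjusted p = 0.758). Timm21, which links the complex to TOM and to the respiratory chain, averaged 2.23 ± 0.582 FPKM in inhibitor libraries and 1.89 ± 0.612 FPKM in controls, with 0.16 (SE 0.26, limma adjusted p = 0.874). Timm21 overlaps the locus of Fbxo15 on the opposite strand with 0 shared exonic bases, and Fbxo15 averaged 318 ± 73.3 FPKM in inhibitor libraries and 357 ± 13.5 FPKM in controls. Timm17a and Timm17b are alternative subunits of the channel. Timm17a averaged 249 ± 55.3 FPKM in inhibitor libraries and 266 ± 13.9 FPKM in controls, and Timm17b averaged 31.2 ± 2.72 FPKM in inhibitor libraries and 29.7 ± 7.01 FPKM in controls. Their fold changes were -0.12 (SE 0.19, limma adjusted p = 0.876) and 0.090 (SE 0.22, limma adjusted p = 0.921), and that of Timm17a was 0.052 without inhibitor replicate 2. The ratio of Timm17a to Timm17b within a library was 7.32, 6.33 and 10.6 in the inhibitor libraries, against 9.997, 6.92 and 10.97 in control libraries, so that the a form was the more abundant in each library and the groups overlapped.

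Timm23 itself (ENSMUSG00000013701, chromosome 14, 32180162 to 32201898, minus strand) was at 1218, 833 and 797 FPKM in the inhibitor libraries, against 1174, 1069 and 1102 FPKM in control libraries. Inhibitor replicates 2 and 3 lay below all controls and replicate 1 above them, with a fold change of -0.26 (SE 0.19, limma adjusted p = 0.715). This level is uncertain, since the table also lists predicted genes with nearly the same sequence. No source used here states how reads common to the copies were divided. Gm10273 matched the Timm23 transcript at 99.9% identity over 95.6% of its length, and Gm10171 and Gm10233 at 100% over 53.5%. Together with Gm16209 they held 955, 461 and 1512 FPKM in the inhibitor libraries and 805, 535 and 603 FPKM in control libraries. Inhibitor replicate 3, lowest in Timm23, was highest in its copies. With the copies added, Timm23 came to 2174, 1294 and 2309 FPKM in the inhibitor libraries and 1979, 1605 and 1705 FPKM in control libraries, and the fold change turned to 0.087 (limma adjusted p = 0.933). Timm23 was the one of the 4 genes with such copies whose sign turned.

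Copies near-identical over shorter stretches also accompanied Tomm20, Timm8a1 and Timm17a, with at least 95% identity over 200 bases or more. Only copies averaging at least 1 FPKM were counted, here and for Timm23. The longest matches of these copies covered 435 and 300 of 4902 bases of the Tomm20 transcript, 612 of 1421 in Timm8a1 and 516 of 7280 in Timm17a. For Tomm20 the copies were Gm14494 and Gm15365, which held 286, 208 and 282 FPKM in the inhibitor libraries and 296, 245 and 286 FPKM in control libraries. For Timm8a1 it was Gm9797, at 69.1, 122 and 187 FPKM in the inhibitor libraries and 101, 140.04 and 138 FPKM in control libraries. In both sets the lowest and the highest library were the same as in the gene itself. For Timm17a it was Gm7180, at 47.9 ± 16.6 FPKM in inhibitor libraries and 41.99 ± 9.49 FPKM in controls (SD, n = 3 each). With copies added the fold changes were -0.15 for Tomm20, -0.12 for Timm8a1 and -0.077 for Timm17a, where the genes alone gave -0.18, -0.13 and -0.12. This summing was chosen after the data were seen. For all 4 genes it added FPKM, which are per length of transcript, without regard to the lengths of gene and copies. The sums and their fold changes need not be those of the pooled reads.

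**Figure D3:**
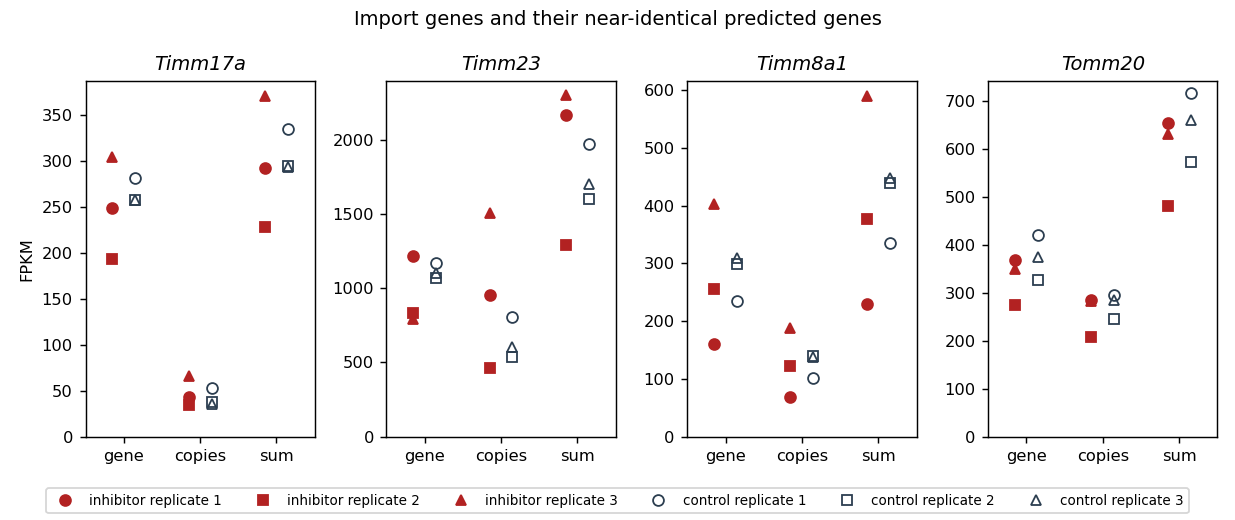
FPKM of 4 import genes, of their near-identical predicted genes summed, and of both together, with filled symbols for the inhibitor libraries and open symbols for controls. For Timm23 the 3 inhibitor libraries change order between gene and copies, with replicate 3 at 797 FPKM in the gene and 1512 FPKM in the copies, while in Timm8a1 the inhibitor libraries keep their order.

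Of the 3 tested genes of the carrier-inserting TIM22 complex 2 had fold changes above 0 and 1 below (median 0.14), and in 1 the groups did not overlap. Timm10b, a small subunit bound to the complex, was at 2.28, 2.03 and 2.395 FPKM in the inhibitor libraries, against 1.98, 1.39 and 1.54 FPKM in control libraries. All inhibitor libraries lay above all controls, though not under either scaling, at a low level and with a fold change of 0.30 (SE 0.22, limma adjusted p = 0.718); with a pseudocount of 0.1 it was 0.44. Timm10b shares 277 exonic bases, 7.73% of its exons, with Arfip2 on the opposite strand, which averaged 0.495 FPKM in inhibitor libraries and 0.197 FPKM in controls. Timm22, which forms the insertion pore, averaged 67.4 ± 12.3 FPKM in inhibitor libraries and 69.8 ± 10.7 FPKM in controls (SD, n = 3 each), with a fold change of -0.052 (SE 0.20, limma adjusted p = 0.958). Timm29, which joins the complex to TOM, ranged widely, at 4.89, 18.2 and 10.1 FPKM in the inhibitor libraries, against 5.92, 9.29 and 12.1 FPKM in control libraries. Its residual spread left an interval of -0.86 to 1.15 around a fold change of 0.14, and the estimate was -0.27 without inhibitor replicate 2.

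Among the small TIM chaperones, which work as mixed hexamers, 3 of 6 fold changes lay above 0 and 3 below (median 0.014), and the ratio of the partners Timm10 and Timm9 did not overlap between the groups. Timm10 (ENSMUSG00000027076, chromosome 2, 84826997 to 84830213, plus strand) was at 366, 371 and 352 FPKM in the inhibitor libraries, against 336, 308 and 338 FPKM in control libraries. The inhibitor libraries all lay above the controls, by a small margin that both scalings removed, with a fold change of 0.15 (SE 0.14, limma adjusted p = 0.769). Timm9 (ENSMUSG00000021079, chromosome 12, 71123173 to 71136684, minus strand) was at 11.96, 8.97 and 8.501 FPKM in the inhibitor libraries, against 13.8, 12.9 and 11.5 FPKM in control libraries. Inhibitor replicates 2 and 3 lay below all controls and replicate 1 within them, with a fold change of -0.35 (SE 0.22, limma adjusted p = 0.675), the lowest of the import genes. The ratio of Timm10 to Timm9 was 30.6, 41.4 and 41.4 in the inhibitor libraries, against 24.4, 23.9 and 29.5 in control libraries. Each inhibitor library had a higher ratio than each control, with means of 37.8 ± 6.23 in inhibitor libraries and 25.9 ± 3.08 in controls (SD, n = 3 each). It was 1 of 6 ratios computed, is given as a description and was not tested. Timm9 shares 49 exonic bases, 1.14% of its exons, with Tomm20l on the opposite strand.

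The second pair of hexamer partners, Timm8a1 or Timm8b with Timm13, varied among inhibitor libraries without separating the groups. Timm8a1 was at 161, 256 and 403 FPKM in the inhibitor libraries, against 235, 299 and 309.6 FPKM in control libraries. Inhibitor replicate 1 was the lowest of the 6 libraries and inhibitor replicate 3 the highest, with a fold change of -0.13 (SE 0.31, limma adjusted p = 0.921). Timm8b was at 126, 149 and 227 FPKM in the inhibitor libraries, against 161, 184 and 147 FPKM in control libraries, and its inhibitor libraries stood in the same order. Timm8b shares 81 exonic bases, 15.6% of its exons, with Nkapd1 on the opposite strand, which averaged 6.51 FPKM in inhibitor libraries and 6.69 FPKM in controls. Their ratio, Timm8a1 to Timm8b, was 1.28, 1.72 and 1.78 in the inhibitor libraries, against 1.46, 1.62 and 2.104 in control libraries. Timm13 averaged 126 ± 18.3 FPKM in inhibitor libraries and 114 ± 22.4 FPKM in controls (SD, n = 3 each) and Timm8a2, a further Timm8a paralog, 28.98 ± 5.47 FPKM in inhibitor libraries and 27.95 ± 3.55 FPKM in controls. Their fold changes were 0.14 (SE 0.20, limma adjusted p = 0.854) and 0.041 (SE 0.21, limma adjusted p = 0.97).

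**Figure D4:**
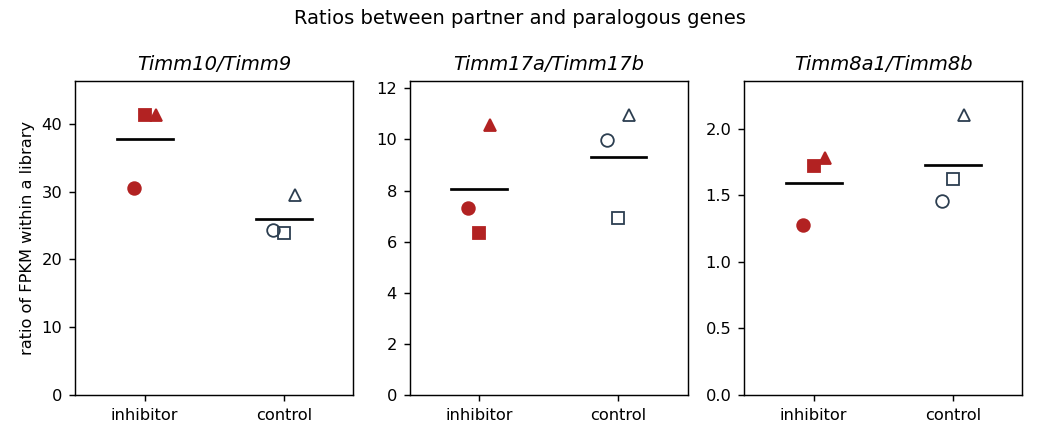
Ratio of FPKM within each library for Timm10 to Timm9, Timm17a to Timm17b and Timm8a1 to Timm8b, filled symbols for inhibitor and open symbols for control libraries, with group means as bars. In the first panel the inhibitor libraries lie between 30.6 and 41.4 and the controls between 23.9 and 29.5, and in the other panels the groups overlap.

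Both remaining genes of the name have roles outside the translocases. Timmdc1, an assembly factor of complex I, averaged 14.9 ± 3.997 FPKM in inhibitor libraries and 15.6 ± 2.699 FPKM in controls (SD, n = 3 each), and Tomm34, a cytosolic co-chaperone of precursor proteins, averaged 9.92 ± 1.14 FPKM in inhibitor libraries and 8.37 ± 2.54 FPKM in controls. The fold changes were -0.078 (SE 0.26, limma adjusted p = 0.948) and 0.26 (SE 0.27, limma adjusted p = 0.79). In Tomm34 control replicate 1 was the lowest of the 6 libraries, at 5.45 FPKM, and without it the fold change was 0.0072.

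The promoters of these genes were read from RefSeq on GRCm38.p6, which gave 26 windows of 300 bases (250 before to 50 after the start) for 24 of the 27 genes. Timm21, Tomm40l and Tomm7 had no window. Motifs of 7 letters, 6 in number, were searched on both strands, namely the ETS site CCGGAAG bound by GABPA, the NRF1 core GCATGCG, the YY1 core AAGATGG, the GC box GGGCGGG, the CRE TGACGTC and the ERR core AAGGTCA. The ETS letters occurred in 11 of the 26 windows (42.3%), compared with 21.3% of the windows of tested genes and 8.86% of all 32851 windows. The GC box occurred in 34.6% of import windows and 44.1% of the windows of tested genes, and NRF1 in 3.85% and 7.30%, YY1 in 11.5% and 8.11%, ERR in 11.5% and 3.57%, and CRE in 0% and 6.17%. Median GC content was 58.3% in import windows and 60.0% in windows of tested genes. A match describes letters and is no proof of binding. Some matches overlap on opposite strands, because CCGGAAG and its reverse complement share CCGG, and in Timm23 an ETS match overlaps the ERR match.

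The stretch from 70 bases before to 30 after the start is shown for 3 genes whose values are given above. These are Tomm70a and Timm10, whose groups did not overlap, and Timm9, the partner of Timm10. Shown as well are Tomm22, Timm23 and Timm8b, abundant genes that hold the ETS letters, while abundant genes without them are left out. All are 5′ to 3′ along the gene, and capitals mark the ETS letters on either strand.
Tomm70a, chr16:57121644-57121743, plus strand: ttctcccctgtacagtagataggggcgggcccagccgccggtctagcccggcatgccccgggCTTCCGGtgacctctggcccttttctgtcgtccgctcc
Timm10, chr2:84826951-84827050, plus strand: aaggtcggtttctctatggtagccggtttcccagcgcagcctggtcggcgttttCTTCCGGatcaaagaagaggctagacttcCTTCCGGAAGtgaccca
Timm9, chr12:71136646-71136745, minus strand: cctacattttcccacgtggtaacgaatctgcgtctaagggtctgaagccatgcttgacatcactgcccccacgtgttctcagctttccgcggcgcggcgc
Tomm22, chr15:79670798-79670897, plus strand: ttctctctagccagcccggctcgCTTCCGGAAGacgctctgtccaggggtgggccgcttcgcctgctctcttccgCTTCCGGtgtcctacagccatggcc
Timm23, chr14:32201862-32201961, minus strand: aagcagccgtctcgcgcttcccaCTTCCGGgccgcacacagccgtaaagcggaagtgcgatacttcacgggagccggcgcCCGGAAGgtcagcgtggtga
Timm8b, chr9:50603831-50603930, plus strand: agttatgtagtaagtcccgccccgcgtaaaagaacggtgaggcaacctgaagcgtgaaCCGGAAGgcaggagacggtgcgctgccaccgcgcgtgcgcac
Within this stretch Timm10 and Tomm22 held 3 matches each, Timm23 held 2, Tomm70a and Timm8b 1 each and Timm9 0. Tomm5, Tomm20, Timm8a1 and Timm17a, which are not shown and averaged higher levels than Timm8b, each held 0. Timm10b, the third gene whose groups did not overlap, held its match farther downstream. Genes with the match had fold changes on both sides of 0, such as 0.49 for Tomm70a and -0.26 for Timm23.

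Proteins that act beside the translocases were described from lists, of which 42 genes were tested. Of these genes 29 lay above 0 (69.0%, beside 57.1% of all tested genes) and 13 below, and their median fold change was 0.17. Under median-ratio scaling 23 lay above 0 (54.8%, beside 49.7%) and under quantile normalization 22 (52.4%, beside 47.0%). None passed limma over all genes. At an unadjusted p under 0.05, 3 of the 42 were higher and 0 lower, beside 4.72% and 3.8% of all tested genes. The SAM and MICOS list, whose proteins assemble outer membrane barrels and shape cristae, had 10 of 11 genes on the higher side, and its median was 0.44 (9 of 11 and medians of 0.36 and 0.33 under the 2 scalings, 10 of 11 and 0.47 without inhibitor replicate 2). In 5 of these genes (45.5%) the inhibitor libraries exceeded every control, beside 9.13% of all tested genes. In 1 (9.09%), Mtx2, they stood below, beside 6.26%. Under median-ratio scaling 3 exceeded every control (27.3%, beside 6.41%) and under quantile normalization 2 (18.2%, beside 5.9%). Samm50, among the 5, averaged 1.43 FPKM in inhibitor libraries and 0.59 FPKM in controls, and passed the filter of 1 FPKM only through the inhibitor libraries. Mtx3 of the same list, at 0.583 FPKM in inhibitor libraries and 0.92 FPKM in controls, fell below the filter and was not counted. The counts of this list thus depend in part on the filter. Micos10, a core subunit of MICOS at the crista junction, was at 56.3, 61.3 and 64.2 FPKM in the inhibitor libraries, against 43.998, 43.4 and 44.2 FPKM in control libraries. The groups did not overlap, also under both scalings, with a fold change of 0.45 (SE 0.16, limma adjusted p = 0.506). Its 95% interval, 0.088 to 0.82, included 0 under median-ratio scaling (-0.015 to 0.76), under quantile normalization (-0.050 to 0.74) and when any control was left out. Apoo, another MICOS subunit, was at 103, 103 and 118 FPKM in the inhibitor libraries, against 75.6, 92.8 and 70.7 FPKM in control libraries. There was again no overlap, with a fold change of 0.44 (SE 0.17, limma adjusted p = 0.549). The interval of Apoo included 0 under median-ratio scaling (-0.060 to 0.77), quantile normalization (-0.073 to 0.75), the replicate block and with some of the libraries left out.

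The import motor list, which pulls precursors into the matrix, had 5 of 6 genes on the higher side, also under both scalings, and its median was 0.28. Grpel1, the nucleotide exchange factor of the motor, was at 134, 86.5 and 95.4 FPKM in the inhibitor libraries, against 75.3, 81.8 and 72.97 FPKM in control libraries. All inhibitor libraries exceeded all controls, though they overlapped under both scalings, with a fold change of 0.43 (SE 0.20, limma adjusted p = 0.608). Hspa9, the mitochondrial Hsp70, averaged 38.1 ± 11.9 FPKM in inhibitor libraries and 28.4 ± 0.795 FPKM in controls (SD, n = 3 each), with 0.36 (SE 0.25, limma adjusted p = 0.697), and Dnajc15, a J protein of the motor, was the member below 0. In the list of presequence and inner membrane proteases 6 of 12 lay above 0, and 4 under median-ratio scaling and 3 under quantile normalization. Immp1l, an inner membrane peptidase, averaged 28.1 ± 2.39 FPKM in inhibitor libraries and 21.04 ± 2.56 FPKM in controls, with 0.40 (SE 0.19, limma adjusted p = 0.608), and Lonp1, the matrix protease, 5.27 ± 1.69 FPKM in inhibitor libraries and 3.35 ± 0.631 FPKM in controls, with 0.50 (SE 0.27, limma adjusted p = 0.635).

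Among other insertases and the relay of the intermembrane space 5 of 9 lay above 0, and 3 under either scaling. Romo1, a small inner membrane protein of the TIM23 complex outside the name rule, was at 63.9, 97.8 and 116 FPKM in the inhibitor libraries, against 57.7, 56.5 and 59.6 FPKM in control libraries. The groups did not overlap except under quantile normalization, with a fold change of 0.62 (SE 0.23, limma adjusted p = 0.514). Agk, a subunit of the TIM22 complex, averaged 2.33 ± 0.971 FPKM in inhibitor libraries and 1.72 ± 0.468 FPKM in controls (SD, n = 3 each), with 0.26 (SE 0.29, limma adjusted p = 0.801). Of 4 matrix chaperones 3 lay above 0, and 2 under either scaling, with Dnaja3 at 3.598 ± 0.343 FPKM in inhibitor libraries and 2.53 ± 0.418 FPKM in controls and 0.39 (SE 0.23, limma adjusted p = 0.656), and Hspd1, the chaperonin of the matrix, at 23.3 ± 1.498 FPKM in inhibitor libraries and 20.1 ± 5.16 FPKM in controls and 0.23 (SE 0.23, limma adjusted p = 0.78).

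**Figure D5:**
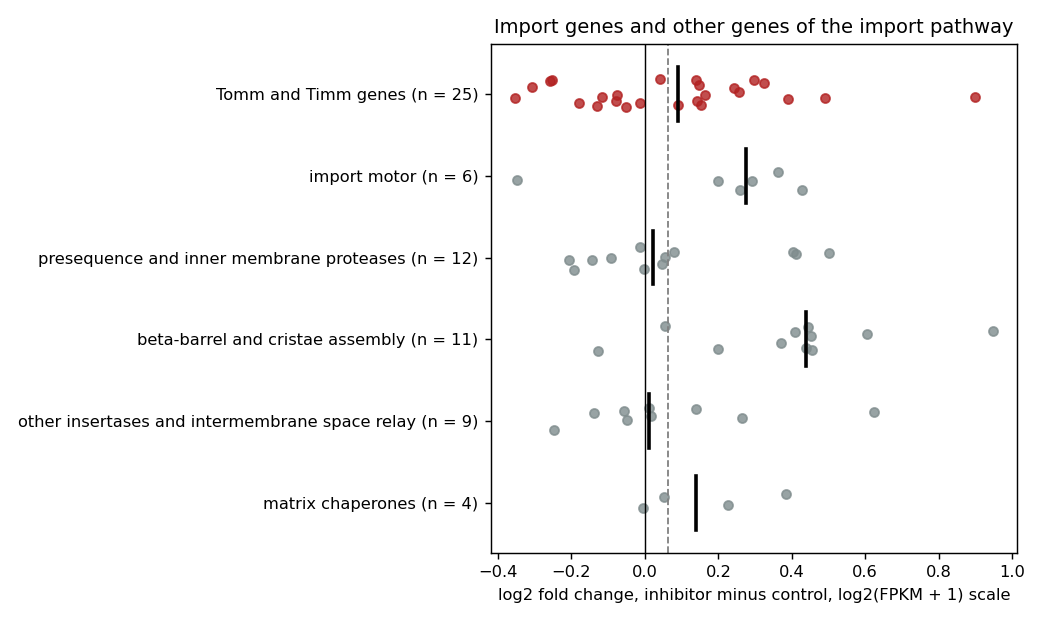
Log2 fold changes, inhibitor minus control, of the 25 import genes (top row) and of 5 lists of other genes of the import pathway, each point a gene and each bar the median of its row, with the median of all tested genes dashed. The import genes spread on both sides of 0 around 0.090, and the SAM and MICOS row has its median at 0.44.

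Beside these stood larger groups of mitochondrial proteins that depend on import. Of 47 tested Nduf genes, most of them complex I subunits, 38 lay above 0 with a median of 0.25 (35 and 33 above 0 under median-ratio scaling and quantile normalization), and in 9 (19.1%) the inhibitor libraries were above all controls and in 0 below, beside 9.13% and 6.26% of all tested genes. Under median-ratio scaling 2 (4.26%) were wholly above and under quantile normalization 0, beside 6.41% and 5.9% of all tested genes, and without inhibitor replicate 2 there were 16 (34.0%), beside 14.8%. Of 77 tested mitochondrial ribosomal protein genes 57 lay above 0 with a median of 0.13 (47 and 42 under the same scalings), and 11 (14.3%) were wholly above and 1 below. Under median-ratio scaling 4 were wholly above and 3 below, under quantile normalization 2 and 3, beside 8.51% and 9.05% of all tested genes wholly below. Without inhibitor replicate 2 the median was 0.24, and 26 (33.8%) were wholly above and 2 below. The corresponding counts of the import genes were 14 of 25 above 0, 3 wholly above and 0 below. Over all tested genes 57.1% lay above 0, and 49.7% and 47.0% under median-ratio scaling and quantile normalization. The median over all tested genes was 0.062, and 0.032 without inhibitor replicate 2. The difference between these groups of genes was not tested.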

How the data were processed

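Mouse 4-cell embryo libraries, 3 under the inhibitor and 3 controls, were grouped and numbered by their titles. Per the labels' protocols, cDNA was primed with oligo(dT), amplified by PCR, fragmented and sequenced paired-end. Per the submitters' processing notes, cutadapt 1.9, HISAT2 2.2.1, StringTie 2.1.6, DESeq2, edgeR and the build GRCm38 were used, with no role stated for any of them. The authors deposited FPKM per gene, a fold (ratio of the group means, which all 29431 genes matched within 1%), its log2, and a p-value and q-value of unstated origin. Depth is unknown, so no counting intervals are given.

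From the deposited FPKM, the 9691 genes averaging 1 FPKM or more were tested with limma 3.58.1 (R 4.3.3; trend and robust options) after log2(FPKM + 1), with Benjamini-Hochberg adjustment over all of them; this scale understates changes of low genes. The fit was tested on simulated data. Members and lists were chosen with earlier results of these data known. All members are named, and from each other list the 2 tested genes with the smallest unadjusted p. Mtx2, Samm50, Mtx3 and Dnajc15 were named after their values were seen. So were the single markers Dppa3, Pou5f1, Gdf9, Tle6, Ooep, Nlrp5, Carm1, Amhr2 and Nr5a2. Coordinates and exon overlaps came from GENCODE M21 (GRCm38), near-identical copies from BLAST 2.17.0 against its transcripts, promoters from RefSeq (GRCm38.p6). Python 3.11.15 and matplotlib 3.10.9 drew the plots. Alternatives covered the pseudocount, filter, scaling, variance model, replicate block and each library left out.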

Additional observations from a re-analysis of the deposited data

How the results depend on the processing

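No import gene passed limma at an adjusted p of 0.05 under any of the 14 alternatives, with 0.280 as the lowest adjusted p (Tomm40 without inhibitor replicate 3). Of 347 fold changes of import genes under the alternatives, 327 kept their sign and 20 did not, and 15 of the 25 genes kept it throughout. The sign turned for Timm8a2 under median-ratio scaling (-0.038) and quantile normalization (-0.085), for Timm17b under quantile normalization (-0.019) and for Timm23 with its near-identical copies added (0.087). With single libraries left out, the fold change ran from -0.46 to 0.20 in Timm8a1, -0.27 to 0.052 in Timm17a, -0.22 to 0.15 in Timmdc1, -0.20 to 0.036 in Timm22, -0.25 to 0.17 in Timm8b, -0.084 to 0.18 in Timm8a2, -0.060 to 0.26 in Timm17b, -0.27 to 0.58 in Timm29 and -0.0026 to 0.31 in Timm21. The median over the import genes, 0.090, was 0.041 with no filter, 0.065 with a mean of at least 5 FPKM, 0.010 under median-ratio scaling and -0.019 under quantile normalization, and 0.0072 to 0.13 with single libraries left out. The count of import genes wholly above the controls, 3, was 1 under median-ratio scaling and 1 under quantile normalization. It was 3 to 6 with single libraries left out (5 without inhibitor replicate 1, 6 without inhibitor replicate 3). The count wholly below, 0, was 1 under quantile normalization and 0 to 2 with single libraries left out. Smaller groups separate more readily. Over all tested genes the share wholly above was 9.13%, and 14.8% without inhibitor replicate 2. The share wholly below was 6.26%, and 11.3% without inhibitor replicate 2. Under median-ratio scaling the shares above and below were 6.41% and 8.51%, and under quantile normalization 5.9% and 9.05%. The shares were not computed with any other library left out, so the counts in those settings cannot be set beside all genes. With single libraries left out, 13 to 17 import genes lay above 0 and 8 to 12 below.

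Import genes at an unadjusted p under 0.05 numbered 0 to 4 over the alternatives. Over all genes, limma calls at an adjusted p of 0.05 were 0 to 11 higher and 0 to 1 lower with single libraries left out (11 and 1 when inhibitor replicate 1 was dropped, 1 and 0 when inhibitor replicate 2 was, and otherwise 0). At an unadjusted p under 0.05, 457 higher genes became 259 with a mean of at least 5 FPKM, 299 under median-ratio scaling, 268 under quantile normalization and 293 to 748 with single libraries left out. The 368 lower genes became 206 with a mean of at least 5 FPKM, 622 with no filter, 512 under median-ratio scaling, 543 under quantile normalization and 236 to 444 with single libraries left out. Deviations from the group means in libraries of the same replicate number had correlations of 0.136, 0.202 and 0.037 across genes. Correlations between unlike numbers were not computed, so these values cannot decide whether the libraries were paired. The labels give no pairs, and the numbers were not taken as pairs. With the replicate block 485 genes were higher and 392 lower at an unadjusted p under 0.05, and the import genes kept 14 fold changes above 0. The cause of these shifts was not tested. Depth is unknown, which limits what can be said of genes listed at 0.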
